A study of Arabidopsis thaliana with 9 samples.

Results

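MCCA, MCCB and accD encode subunits of biotin-dependent carboxylases, and they are described here across leaves of 3 groups of Arabidopsis thaliana plants. They were chosen by name, as the genes that a probe annotation pairs with a probe set of their own, and make up 3 of the 13356 genes named in that way. MCCA is locus AT1G03090 on chromosome 1, MCCB is locus AT4G34030 on chromosome 4, and accD lies in the chloroplast genome. Each gene had 1 probe set, a group of short probes on the Affymetrix ATH1 array that together report 1 transcript.

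The first group was the bio4-1 mutant watered with 200 µM D-biotin, the second was bio4-1 given plain water, and the third was wild type given plain water, all in the Col-0 ecotype. In bio4-1 a T-DNA lies in the 5′ untranslated region of BIO4, which encodes 7-keto-8-aminopelargonic acid synthase, an enzyme of biotin synthesis; the labels name this 1 mutant line and do not say how much BIO4 function is left. BIO4 itself had no probe set named for it alone, so its transcript, which would check the labels, was not analysed here. Each group had 3 arrays, each array held RNA pooled from the rosette leaves of 5 plants aged 5 weeks, and watering was weekly. Wild type was not grown with biotin, and a response to biotin in any plant therefore cannot be told apart from one particular to the mutant.

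Biotin is a cofactor that carries an activated carboxyl group between the active sites of a carboxylase. 3-Methylcrotonyl-CoA carboxylase is a mitochondrial enzyme of leucine breakdown: MCCA is its larger subunit, which holds the biotin and the biotin carboxylase domain, and MCCB is the carboxyltransferase subunit that passes the carboxyl group to the substrate and holds no biotin of its own. The accD protein is the β subunit of the carboxyltransferase of plastid acetyl-CoA carboxylase, the enzyme that makes malonyl-CoA for fatty acid synthesis. Its partner subunits, the biotin carboxyl carrier protein among them, are encoded in the nucleus, and accD is read mainly by the nuclear-encoded plastid RNA polymerase.

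The values were log2 expression summaries, so a difference of 1 is a doubling. Array medians lay from 5.95 to 6.07, and each of the 3 genes lay above the median on all 9 arrays. The arrays numbered 1 stood apart: pairs with exactly 1 of them correlated at 0.95 to 0.972 across probe sets, and the 15 pairs among arrays 2 and 3 at 0.987 to 0.997. They were not all alike, since the 3 pairs among them ranged from 0.951 to 0.994. On the arrays numbered 1 the actin control probes, which read the 3′ and the 5′ end of the transcript, differed by 3.67 to 4.13 log2 units, against 2.27 to 2.76 on the other 6. Results are therefore given on all 9 arrays, and those of the 3 subunit genes and of several listed genes also on arrays 2 and 3 alone. Of the 6 leaf markers listed, RCA alone, the gene of Rubisco activase, had a named probe set, at 13.77 to 13.86 on every array. SAG29, a marker of senescing leaves, lay at 4.73 to 5.81; the listed markers of flower, seed and root were not analysed here. In whole leaves, fewer cells of a type and less RNA per cell cannot be told apart.

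MCCB was the subunit gene with the clearest separation between groups. Its log2 level was 8.68, 8.52 and 8.67 on bio4-1 arrays 1, 2 and 3, against 8.80, 8.96 and 9.01 in wild type. Every bio4-1 array lay below every wild type array. The mean was 8.62 ± 0.09 in bio4-1 and 8.92 ± 0.11 in wild type (SD, n = 3 each), a difference of −0.30 ± 0.10 (SE). As a ratio, this is 0.813 times the wild type level, with a 95% confidence interval from 0.694 to 0.951. The limma test gave an unadjusted p of 0.0162 and an adjusted p of 0.545, so MCCB did not pass the threshold of 0.05 over all probe sets.

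Such a separation was not particular to MCCB. How many genes differed by as much was not counted. Between bio4-1 and wild type 0.0374% of genes passed the threshold on all 9 arrays, with 0% of genes lower in bio4-1. The share with an unadjusted p under 0.05 was 6.6%. Lower values in bio4-1 with no overlap between the groups were found for 6.85% of genes. MCCB was called when the arrays were weighted by their spread, with a difference of −0.36 and an adjusted p of 0.0258, in a fit that called 3.83% of genes. In that fit bio4-1 arrays 1, 2 and 3 had weights of 0.248, 1.94 and 1.86, and wild type arrays 0.225, 4.76 and 0.969, so wild type array 2 counted most. On arrays 2 and 3 alone the difference was −0.39 ± 0.10 (limma adjusted p = 0.0873), where 3.39% of genes were called. It was −0.12 between the single arrays numbered 1.

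In biotin-watered bio4-1, MCCB had 8.75, 8.93 and 8.87 on arrays 1, 2 and 3, against the 8.68, 8.52 and 8.67 of water-grown bio4-1. Every biotin-watered array lay above every water-grown bio4-1 array. The mean of 8.85 ± 0.09 with biotin was 0.22 ± 0.10 (SE) above that of water-grown bio4-1, or 1.17 times its level, with a 95% interval from 0.998 to 1.37. The limma unadjusted p was 0.0523 and the adjusted p 1, in a comparison where 0% of genes passed on all 9 arrays. An unadjusted p under 0.05 was found for 4.12% of genes. Higher values with biotin and no overlap were found for 5.08% of genes. Array weights again gave a call, with a difference of 0.32 and an adjusted p of 0.0380, and 3.17% of genes were called with them. The 3 biotin-watered arrays had weights of 0.191, 6.77 and 0.831, and biotin-watered array 2 counted most.

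The difference in MCCB with biotin was 0.30 ± 0.10 (adjusted p = 0.174) on arrays 2 and 3, where 2.74% of genes were called. It was 0.06 between the arrays numbered 1. Biotin-watered bio4-1 and wild type overlapped in MCCB, with a difference of −0.07 ± 0.10 (SE) and a 95% interval from −0.30 to 0.15. On arrays 2 and 3 this difference was −0.08 ± 0.10. On all 9 arrays 0.00749% of genes were called in that comparison. The sequence seen for MCCB, lower in bio4-1 and higher with biotin with no overlap either time, was shared by 283 genes, or 2.12%, and the opposite sequence by 2.13%. Both comparisons use the same 3 bio4-1 arrays. Averaged over actin, GAPDH and ubiquitin, the 3′ signal exceeded the 5′ signal on arrays 2 and 3 by 1.70 and 1.51 in biotin-watered bio4-1, by 1.76 and 1.72 in bio4-1 and by 1.71 and 1.52 in wild type. On those arrays it was highest in bio4-1, the group with the lowest MCCB level. Array 1 differed, with 2.82 in biotin-watered bio4-1, 2.50 in bio4-1 and 2.25 in wild type. The part of this measure of RNA quality in the result was not tested.

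MCCA, the subunit that holds the biotin, differed more between arrays than between groups. Its log2 level was 6.95, 7.52 and 7.40 on bio4-1 arrays 1, 2 and 3, against 7.01, 7.17 and 7.51 in wild type. The groups overlapped, with the lowest value of each on its array 1. The means were 7.29 ± 0.30 in bio4-1 and 7.23 ± 0.25 in wild type (SD, n = 3 each). The difference was 0.06 ± 0.21 (SE; limma adjusted p = 0.992). Its 95% interval on 9 arrays, as a ratio, ran from 0.744 to 1.47 times the wild type level. A change of the size measured for MCCB on 9 arrays lies inside it. On arrays 2 and 3 alone the MCCA difference was 0.12 ± 0.13 (adjusted p = 0.692), with a 95% interval from −0.18 to 0.43. The −0.39 measured for MCCB on those arrays lies outside that interval, but the 95% interval of MCCB there, from −0.62 to −0.15, overlaps it. Whether the 2 genes changed differently was not tested.

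With biotin, MCCA had 7.16, 7.68 and 7.64, against the 6.95, 7.52 and 7.40 of water-grown bio4-1. On each array number the biotin-watered value was the higher, by 0.20 for number 1 and by a mean of 0.20 for numbers 2 and 3, while the groups overlapped. The difference on all 9 arrays was 0.20 ± 0.21 (SE; limma adjusted p = 1), with a 95% interval from −0.29 to 0.69. Against wild type, MCCA in biotin-watered bio4-1 was 0.27 ± 0.21 higher (adjusted p = 1), and 0.33 ± 0.13 higher on arrays 2 and 3 (adjusted p = 0.277), where 4.29% of genes were called. Array weights gave 0.45 with an adjusted p of 0.0217 in this comparison, in which genotype and watering both differed and 12.3% of genes were called with weights.

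The widest contrast in MCCA lay between the arrays numbered 1 and the others. Its mean was 7.04 over these 3 arrays and 7.49 over the other 6, a difference of −0.44 ± 0.09 (SE) with the groups as terms in the fit (limma adjusted p = 0.0149). In that test 21.6% of all genes were called. MCCB, with a mean of 8.74 on the arrays numbered 1 and 8.82 on the others, differed by −0.08 ± 0.08 (adjusted p = 0.513), and accD by 0.54 ± 0.31 (adjusted p = 0.240). What set the arrays numbered 1 apart was not tested.

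**Figure D1:**
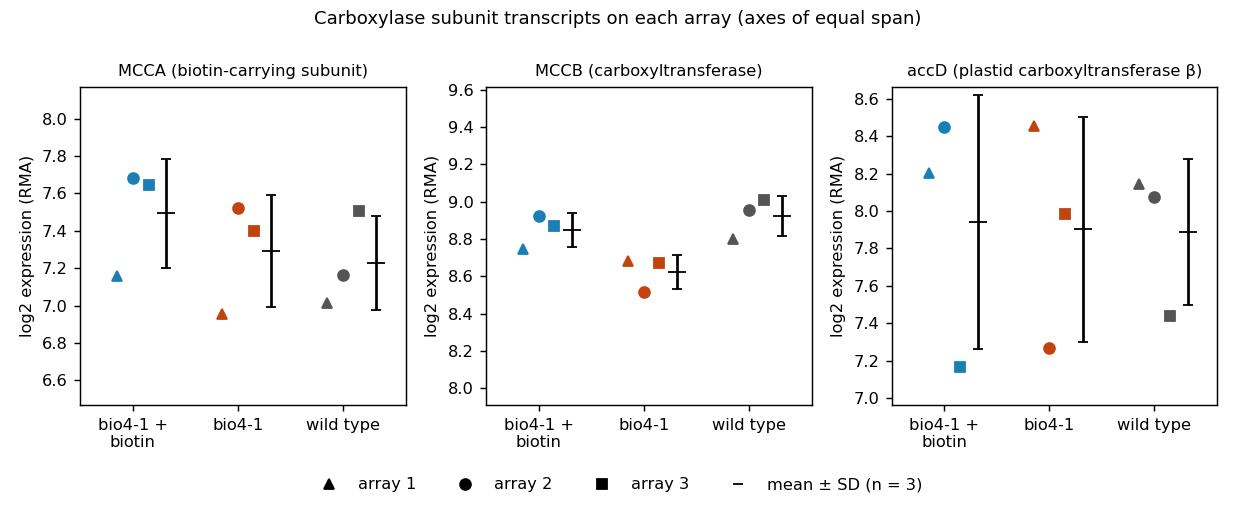
Log2 expression (RMA) of MCCA, MCCB and accD on each array in biotin-watered bio4-1, bio4-1 and wild type; triangles, circles and squares are arrays 1, 2 and 3, and bars give the mean ± SD (n = 3). MCCB shows bio4-1 arrays between 8.52 and 8.68, below both other groups, MCCA is lowest on array 1 of each group, and accD spreads from 7.17 to 8.46 within and across groups.

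The difference between the 2 subunit genes on an array has no meaning as a level, since it depends on the probes, but it can be compared between groups. MCCB minus MCCA was 1.59, 1.24 and 1.22 in biotin-watered bio4-1, 1.73, 0.99 and 1.27 in bio4-1, and 1.79, 1.79 and 1.5 in wild type. The means were 1.35 ± 0.21, 1.33 ± 0.37 and 1.69 ± 0.17 (SD, n = 3 each). Each bio4-1 value of arrays 2 and 3, watered with biotin or not, was below both wild type values of these numbers. Array 1 of both bio4-1 groups lay between the wild type arrays, so over all arrays the groups overlapped. How many pairs of genes separate in this way on arrays 2 and 3 was not counted, and the values are given as a description. The levels of MCCA and MCCB followed each other weakly, with a Pearson r of 0.19 over 9 arrays and −0.05 over the 6 arrays numbered 2 and 3.

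The accD transcript varied widely within each group. Its log2 level was 8.46, 7.27 and 7.98 on bio4-1 arrays 1, 2 and 3, against 8.15, 8.08 and 7.44 in wild type. All 3 wild type values lay within the range of bio4-1. The mean was 7.90 ± 0.60 in bio4-1 and 7.89 ± 0.39 in wild type (SD, n = 3 each), a difference of 0.01 ± 0.41 (SE; limma adjusted p = 0.999). With biotin, accD had 8.20, 8.45 and 7.17, a mean of 7.94 ± 0.68 (SD, n = 3), and differed from water-grown bio4-1 by 0.04 ± 0.41 (adjusted p = 1). The 95% intervals, as ratios, ran from 0.523 to 1.95 for bio4-1 against wild type and from 0.532 to 1.98 for biotin-watered against water-grown bio4-1. A change of accD of nearly 2-fold in either direction therefore lies inside the intervals and is not excluded by this fit.

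Biotin-watered bio4-1 and wild type differed in accD by 0.05 ± 0.41 (adjusted p = 1). The 3 differences of accD on arrays 2 and 3 were −0.13 for bio4-1 against wild type, 0.18 for biotin-watered against water-grown bio4-1 and 0.05 for biotin-watered bio4-1 against wild type, each with an SE of 0.43. Array weights gave accD differences of −0.31 and 0.64 in the first and second of these comparisons, with limma adjusted p of 0.646 and 0.268. The within-group SD of accD, pooled over the groups, was 0.57. That of MCCA was 0.28 and that of MCCB 0.10, and 85.9%, 52.5% and 4.88% of the 11412 probe sets with a mean of at least log2 6 had a within-group SD no larger than that of accD, MCCA and MCCB. MCCB was thus among the least variable transcripts of these arrays and accD among the more variable.

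The spread of accD was shared with other chloroplast genes on part of the arrays. The 68 other chloroplast-encoded genes with a named probe set had a median within-group SD of 0.48, and 40 of them had a smaller one than accD. On bio4-1 array 2, where accD lay 0.64 below its group mean, 64 of the 68 genes were also below theirs, by a median of 0.41. On biotin-watered array 3, where accD lay 0.77 below, 63 of the 68 were below, by a median of 0.33. On bio4-1 array 1, where accD lay 0.56 above, 61 of 68 were above. Not every array followed this. On biotin-watered array 2, with accD 0.51 above its group mean, 34 of 68 genes were on the same side, and on bio4-1 array 3, with accD 0.08 above, 24 of 68 were. The counts were 54 on biotin-watered array 1 and 42, 43 and 53 on wild type arrays 1, 2 and 3.

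Between groups the other chloroplast genes had median differences of −0.02 for bio4-1 against wild type and −0.05 for biotin-watered against water-grown bio4-1. Those of accD were 0.01 and 0.04, and 36 and 50 of the 68 lay below accD. None of the 68 passed the limma threshold on all 9 arrays in either comparison, where 0.0374% and 0% of all genes did. Within arrays 2 and 3, 1 of them passed between bio4-1 and wild type, where 3.39% of all genes did. There none passed between biotin-watered and water-grown bio4-1, where 2.74% of all genes did.

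Chloroplast genes are arranged in clusters that are often transcribed together, and accD is followed by psaI, ycf4, cemA and petA, with rbcL before it. The level of accD over 9 arrays correlated at 0.91 with that of cemA, an inner envelope membrane protein, and at 0.72 with psaI, a photosystem I subunit. It correlated at 0.62 with ycf4, which encodes a photosystem I assembly factor, at 0.62 with petA, which encodes cytochrome f, and at 0.61 with rbcL, which encodes the large subunit of Rubisco. Over the 6 arrays numbered 2 and 3 the values were 0.91, 0.69, 0.91, 0.31 and 0.41 in the same order. All of these genes share the same arrays and RNA samples, and the correlations are given as a description. None of these 5 genes passed the limma threshold in any of the 3 comparisons. On all 9 arrays no more than 0.0374% of all genes did. The differences of the 5 genes between bio4-1 and wild type lay from −0.14 for petA to 0.12 for psaI, against SE of up to 0.53.

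**Figure D2:**
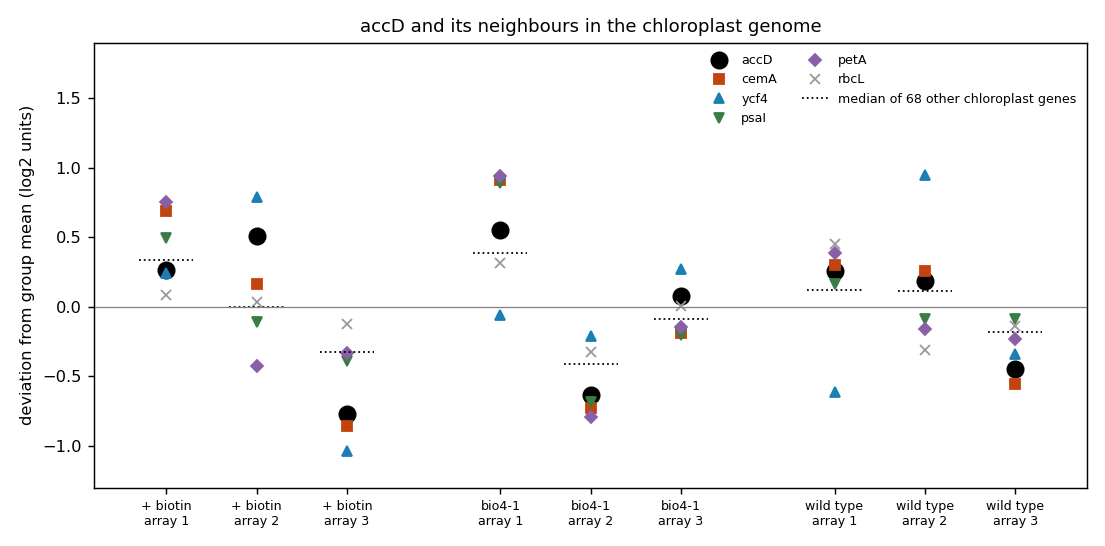
Deviation of accD (large black circles) and of its chloroplast neighbours from their own group mean, in log2 units, on each of the 9 arrays, with biotin-watered bio4-1 (marked + biotin), bio4-1 and wild type from left to right; dotted lines give the median deviation of the 68 other chloroplast genes. On bio4-1 array 2 and biotin-watered array 3, accD and the neighbours shown all lie below their group means, and on bio4-1 array 1 all but ycf4 lie above.

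The genes with a pattern most like each subunit gene were taken as the 5 with the highest Pearson r over 9 arrays among 6011 genes with a mean of at least log2 6. For accD these were petD and petG, both of the cytochrome b6f complex, at 0.94 and 0.85, cemA at 0.91, and the nuclear loci AT1G31910 and AT3G26720 at 0.84 and 0.83. The median r of accD was 0.61 with 64 chloroplast genes of that set and 0.00 with 5932 nuclear genes; over arrays 2 and 3 it was 0.63 and 0.00. For MCCA the closest were AT3G59110, AT4G14500, AT3G14410, AT3G06150 and AT2G20780, at 0.95 to 0.98, and at 0.87 to 0.99 over the 6 arrays numbered 2 and 3. Those 6 are among the 9 arrays used to pick these genes, so the second range is no separate check. The median r of MCCA with 65 chloroplast genes was −0.65 over 9 arrays and −0.43 over those 6.

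For MCCB the closest genes were AT4G01040, AT5G10920, AT4G32330, AT1G73470 and PYRB, the aspartate carbamoyltransferase of pyrimidine synthesis, at 0.89 to 0.93. Over arrays 2 and 3, which are among the arrays used to pick them, they followed MCCB at 0.89 to 0.99. Over 9 arrays 36 of 5931 nuclear genes, or 0.607%, had an r over 0.8 with MCCB, and 330, or 5.56%, with MCCA. Array number 1 shifted MCCA by −0.44 and MCCB by −0.08, in a test that called 21.6% of all genes. How much of the MCCA count comes from this shift was not tested. The median r of MCCB with chloroplast genes was −0.02 over 9 arrays. No gene of the leucine breakdown list was among the 5 closest to either subunit gene. Only 6 genes of that list were measured, against 6011 genes ranked, so their absence says little about the pathway. Of all listed genes FATB, an acyl carrier protein thioesterase, followed MCCA most closely, at 0.90 over 9 arrays and 0.83 over arrays 2 and 3.

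The other enzymes of leucine breakdown act around 3-methylcrotonyl-CoA carboxylase in mitochondria. Of 14 genes listed for this pathway besides MCCA and MCCB, 6 had a named probe set. None of the 6 passed the limma threshold in any comparison, on all 9 arrays or on arrays 2 and 3, and over the 9 arrays none reached an unadjusted p under 0.05. With no more than 0.0374% of all genes called on 9 arrays and 2.74% to 4.29% on arrays 2 and 3, a count of 0 among 6 genes is near the background. Between bio4-1 and wild type 3 were higher and 3 lower, with a median difference of −0.10, against −0.03 for all genes. Between biotin-watered and water-grown bio4-1 the median was 0.05, against 0.03 for all genes.

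IVD, isovaleryl-CoA dehydrogenase, makes the substrate of the carboxylase. It had 7.58, 7.66 and 7.87 on bio4-1 arrays 1, 2 and 3, against 8.44, 7.73 and 7.87 in wild type. Array 3 had the same value, 7.8684, in bio4-1, wild type and biotin-watered bio4-1. The difference of −0.31 ± 0.21 (SE; limma adjusted p = 0.871) lay mostly in the arrays numbered 1, where it was −0.86, against −0.03 on arrays 2 and 3. ETFALPHA and ETFBETA, the electron transfer flavoprotein subunits that take electrons from IVD, had the same form. They differed by −0.30 ± 0.19 and −0.23 ± 0.15 between bio4-1 and wild type, with −0.74 and −0.53 on the arrays numbered 1 and −0.08 for both on arrays 2 and 3. ETFQO, which passes the electrons on to ubiquinone, differed by 0.04 ± 0.27. The adjusted p of these 3 genes lay from 0.848 to 0.996.

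With biotin, IVD differed from water-grown bio4-1 by 0.34 ± 0.21, ETFBETA by 0.22 ± 0.15, ETFQO by 0.08 ± 0.27 and ETFALPHA by 0.01 ± 0.19, each with a limma adjusted p of 1. The remaining 2 listed loci, AT2G26800 and AT5G09300, have no name in the annotation used. AT2G26800 differed by 0.03 ± 0.13 between bio4-1 and wild type and by −0.14 ± 0.13 with biotin. AT5G09300 differed by 0.71 between bio4-1 and wild type on arrays 2 and 3 (adjusted p = 0.0724) and by −0.76 between the arrays numbered 1.

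Of 5 genes listed for breakdown of valine, isoleucine and lysine, 4 were measured and none passed the limma threshold in any comparison. On all 9 arrays no more than 0.0374% of all genes did. ALDH7B4, of an aldehyde dehydrogenase family, had the widest differences, −0.68 ± 0.64 between bio4-1 and wild type and 0.62 ± 0.64 with biotin, and −1.31 and 1.55 on the arrays numbered 1. ALDH6B2, methylmalonate semialdehyde dehydrogenase of valine breakdown, differed by −0.11 ± 0.31 between bio4-1 and wild type, but by 0.26 ± 0.11 on arrays 2 and 3 (adjusted p = 0.246). AT4G33150, the lysine-degrading LKR/SDH enzyme, differed by −0.17 ± 0.12 and D2HGDH, D-2-hydroxyglutarate dehydrogenase, by 0.04 ± 0.21. On arrays 2 and 3 ALDH7B4, AT4G33150 and D2HGDH kept their sign, at −0.36, −0.15 and 0.19. In the synthesis of branched-chain amino acids, 3 of 12 listed genes were measured, AT3G23940, ATBCAT-5 and AT3G58610, with differences of 0.18, −0.11 and −0.08 between bio4-1 and wild type and none past the threshold. On arrays 2 and 3 these differences were −0.13, 0.09 and −0.25. None of these 7 genes reached an unadjusted p under 0.05 over the 9 arrays. Of all genes 6.6% did between bio4-1 and wild type and 4.12% with biotin. No listed gene of dark and sugar starvation or of biotin synthesis and attachment had a probe set named for it alone, and those genes were not analysed here.

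**Figure D3:**
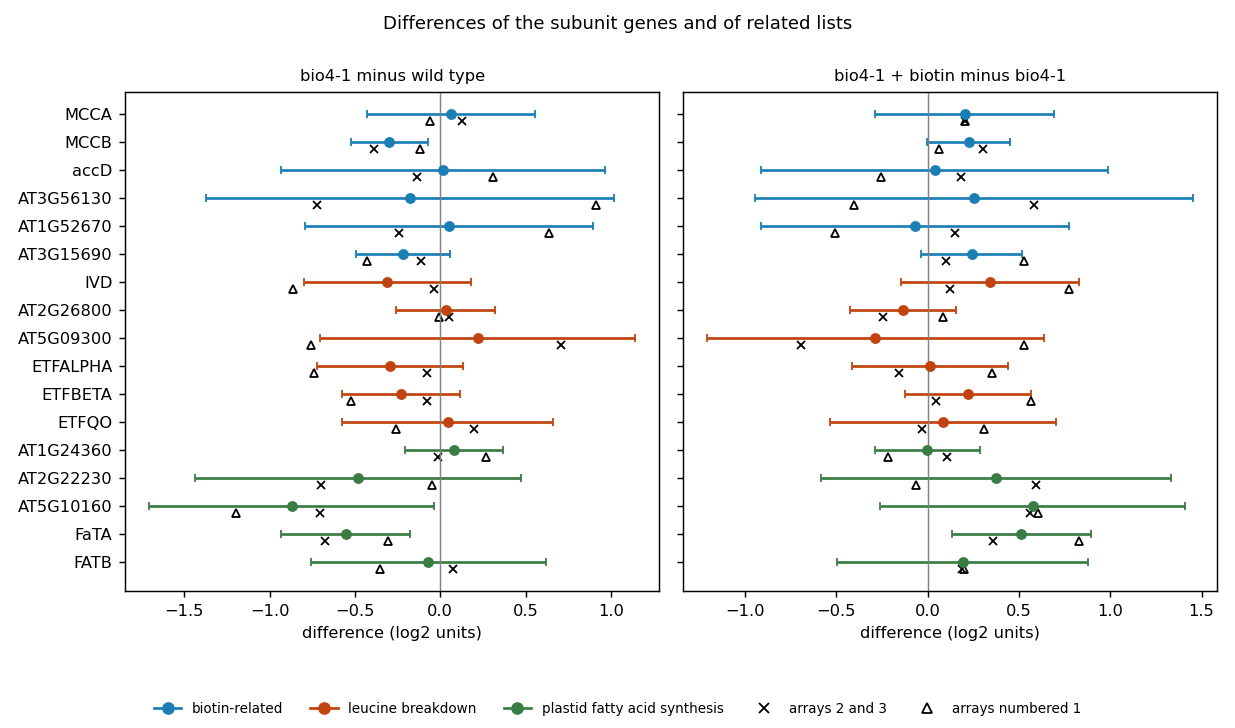
Differences in log2 units for the 3 subunit genes and the measured members of the biotin-related, leucine breakdown and plastid fatty acid synthesis lists, in bio4-1 minus wild type and in biotin-watered bio4-1 minus bio4-1; circles with bars are the fit on 9 arrays with 95% intervals, crosses are arrays 2 and 3 and open triangles the single arrays numbered 1. The interval of MCCB, from −0.53 to −0.07 in bio4-1 minus wild type, is among the narrowest, and for AT3G56130, AT5G09300 and accD, among others, the arrays numbered 1 lie on the other side of 0 from arrays 2 and 3.

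Plastid fatty acid synthesis uses the malonyl-CoA made by the enzyme that accD belongs to. Of 20 genes listed for it 5 were measured, and their median difference between bio4-1 and wild type was −0.48, against −0.03 for all genes. None passed the limma threshold on all 9 arrays, 2 had an unadjusted p under 0.05, as did 6.6% of all genes, and 2 fell on arrays 2 and 3, where 1.49% of all genes fell. With biotin the median was 0.37, against 0.03 for all genes, with none past the threshold on 9 arrays or on arrays 2 and 3 and 1 with an unadjusted p under 0.05 on 9 arrays, against 4.12% of all genes.

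FaTA, the thioesterase that releases fatty acids from acyl carrier protein, fell on arrays 2 and 3. Its log2 level was 5.12, 5.00 and 5.14 on bio4-1 arrays 1, 2 and 3, against 5.43, 5.79 and 5.71 in wild type. These are low levels: the mean over 9 arrays, 5.44, lay below the array medians and below the filter at log2 6. Wild type array 1 and biotin-watered arrays 2 and 3 had the same value, 5.4282. Such ties were not confined to low levels, since AT1G24360 of the same list had 10.3893 on all 3 bio4-1 arrays. The part of low signal in the result was not tested. Every bio4-1 array lay below every wild type array. The difference was −0.55 ± 0.16 (SE; limma adjusted p = 0.477) on 9 arrays and −0.68 ± 0.10 (adjusted p = 0.0157) on arrays 2 and 3. The call on those 6 arrays was lost when any 1 of them was left out, with adjusted p from 0.0525 to 0.184, while the difference stayed between −0.75 and −0.61. With biotin FaTA had 5.95, 5.43 and 5.43, all above the bio4-1 arrays, a difference of 0.51 ± 0.16 (adjusted p = 1). Such a lack of overlap was found for 6.85% of genes lower in bio4-1 than in wild type, for 5.08% higher with biotin and for 2.12% with both. Array weights called FaTA in both comparisons, with −0.69 (adjusted p = 0.00716) and 0.37 (adjusted p = 0.0477).

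AT2G22230, a listed locus with no name in the annotation, also fell on arrays 2 and 3. It had 7.94, 8.36 and 8.51 in bio4-1, against 7.99, 9.17 and 9.09 in wild type, with a difference of −0.48 ± 0.41 (SE; limma adjusted p = 0.909) on 9 arrays, and −0.70 ± 0.14 (adjusted p = 0.0435) on arrays 2 and 3. Between the arrays numbered 1 it was −0.05. AT5G10160 had 6.62, 7.44 and 7.74 in bio4-1, against 7.81, 8.12 and 8.47 in wild type. Its groups did not overlap, as for 6.85% of genes lower in bio4-1 than in wild type. The difference was −0.87 ± 0.36 (adjusted p = 0.696), or −0.71 ± 0.16 on arrays 2 and 3 (adjusted p = 0.0595). With the array number as a block, the 9-array difference of AT5G10160 had an SE of 0.13 (limma adjusted p = 0.0986). In the same fit the adjusted p was 0.387 for AT2G22230, 0.327 for FaTA and 0.871 for AT3G56130. The array numbers were not taken to pair bio4-1 with wild type, so these blocked values are given as a description. With biotin AT2G22230 and AT5G10160 differed from water-grown bio4-1 by 0.37 ± 0.41 and 0.57 ± 0.36. AT1G24360 and FATB differed by 0.08 and −0.07 between bio4-1 and wild type and by −0.00 and 0.19 with biotin. The call of AT2G22230 was lost when any 1 of the 6 arrays was left out, with adjusted p from 0.0527 to 0.387, while the difference stayed between −0.77 and −0.62.

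Beyond the 3 subunit genes, a wider list of 12 biotin-related genes held 3 further loci with a named probe set, AT3G56130, AT1G52670 and AT3G15690. The annotation used gives these loci no name, and their place in the list does not mean that they are enzymes or carry biotin. AT3G56130 had 5.66, 5.79 and 5.85 in bio4-1, against 4.75, 6.48 and 6.62 in wild type. Its mean over 9 arrays, 5.91, also lay below the filter at log2 6. On arrays 2 and 3 AT3G56130 fell by 0.72 ± 0.14 (limma adjusted p = 0.0346), where 1.49% of all genes fell. On the arrays numbered 1 it was instead 0.91 higher in bio4-1. The difference over 9 arrays was −0.18 ± 0.52 (adjusted p = 0.986). Leaving out any 1 of the 6 arrays ended its call, with adjusted p from 0.0507 to 0.346, while the difference stayed between −0.79 and −0.65.

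AT1G52670 and AT3G15690 differed by 0.05 ± 0.37 and −0.22 ± 0.12 between bio4-1 and wild type, and by −0.07 ± 0.37 and 0.24 ± 0.12 with biotin. Over the 6 genes of the list none passed on all 9 arrays, where no more than 0.0374% of all genes did in any comparison. Between bio4-1 and wild type 1, MCCB, had an unadjusted p under 0.05, as did 6.6% of all genes. The median difference was −0.08 between bio4-1 and wild type and 0.21 with biotin, against −0.03 and 0.03 for all genes.

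**Figure D4:**
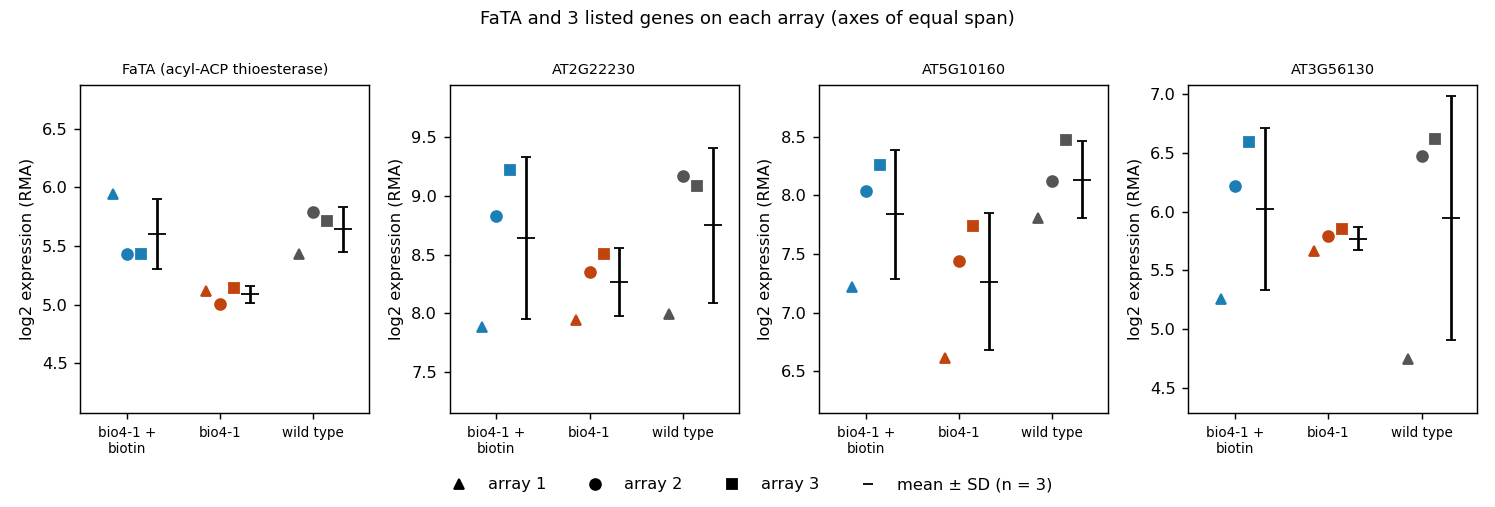
Log2 expression (RMA) of FaTA and of 3 listed loci on each array in biotin-watered bio4-1, bio4-1 and wild type; symbols give the array number and bars the mean ± SD (n = 3). Arrays 2 and 3 of bio4-1 lie below those of wild type for each gene, and array 1 of wild type lies below that of bio4-1 for AT3G56130, at 4.75 against 5.66 in bio4-1.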

How the data were processed

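Rosette leaves of 3 groups were measured on 9 ATH1 arrays, each loaded with cRNA made from 3 µg of RNA per the labels' protocols. The labels do not say that pools came from separate growths, and p-values therefore reflect only how these samples vary, which may be technical. The deposited values were log2 summaries from RMA per the submitters' processing notes; which version was run is not given in the sources used here. Precision is limited by the number of arrays.

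The table held 22810 probe sets, of which 64 controls were left out of the tests. The probe annotation gave 1 name to 13513 of those tested, several to 503 and none to 8730; a gene was read from its brightest probe set. Of the singly named, 13436 matched the TAIR10.1 reference, used for names, chromosomes and gene order only. Groups were compared with limma 3.58.1 in R 4.3.3 (lmFit and eBayes, all groups in 1 fit, Benjamini-Hochberg over the 22746 tested probe sets, threshold 0.05), checked on simulated arrays; Python 3.11.15 drew the plots. List members were matched by symbol, locus code or reference locus; 29 of 79 were measured. The 3 genes and the lists were chosen with earlier results of these data known, as was the use of arrays 2 and 3 alone.

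Named were the 3 genes, all measured members of the biotin and leucine lists, the 4 largest differences between bio4-1 and wild type of each other list (also rbcL, FATB and the 2 marker genes, outside that rule), and the 5 genes most like each subunit gene. Same-numbered arrays deviated from their group means with r of 0.27 to 0.35 between biotin-watered and water-grown bio4-1 and 0.61 to 0.83 between biotin-watered bio4-1 and wild type, so by a minimum of 0.1 the numbers were taken to pair these arrays, although number 2 correlated more with another number (0.36 and 0.65) than with its own (0.27 and 0.61). Between bio4-1 and wild type r was −0.03 to 0.36 and they do not. The values of the 3 genes, FaTA, AT2G22230, AT5G10160 and AT3G56130, the counts of called genes and the leucine breakdown count were recomputed with the array number as a block, without each array, with array weights, after quantile or median scaling, after filtering dim probe sets, with trended or robust variances and on 2 groups; thresholds of 0.01 and 0.1 were tried for the counts of called genes only.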

Additional observations from a re-analysis of the deposited data

How the results depend on the processing

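With the replicate block, MCCB differed by −0.30 (adjusted p = 0.345) between bio4-1 and wild type and by 0.22 (0.631) with biotin, MCCA by 0.06 (0.876) and 0.20 (0.699), and the block changed no call of the 3 genes and left 6, 0 and 1 genes called. Array weights called MCCB at −0.36 and 0.32 and MCCA at 0.45 between biotin-watered bio4-1 and wild type. The small difference of accD between bio4-1 and wild type, 0.01, turned to −0.31 with array weights, −0.13 on arrays 2 and 3 and −0.021 after median centring, none of them past the threshold; the cause was not tested. With each array left out in turn, MCCB ranged from −0.36 to −0.25 between bio4-1 and wild type, from 0.17 to 0.27 with biotin and from −0.13 to −0.02 between biotin-watered bio4-1 and wild type. In the same order MCCA ranged from −0.052 to 0.23, 0.03 to 0.37 and 0.16 to 0.43, and accD from −0.26 to 0.33, −0.28 to 0.42 and −0.20 to 0.44. AT3G56130 ranged from −0.78 to 0.16 and, with biotin, from −0.031 to 0.64. MCCA turned sign between bio4-1 and wild type without bio4-1 array 2 or wild type array 1.

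The 5 genes called between bio4-1 and wild type became 2 in the fit of 2 groups, 1 at an adjusted p of 0.01 and 9 at 0.1, 512 with array weights, 453 on arrays 2 and 3, 33 with a term in the fit for array 1 or not, 1 with the filter at log2 6, and 1 to 5 with an array left out. With biotin the 0 called, beside 550 with an unadjusted p under 0.05, became 423, 366 and 7 with the weights, arrays 2 and 3 and that term, and 0 to 1 with an array left out. Between biotin-watered bio4-1 and wild type the 1 called became 1646 and 573 with the weights and on arrays 2 and 3, and 1 to 3 with an array left out. No leucine breakdown gene other than MCCA and MCCB was called at 0.05 under any of the alternatives in which the pathway was counted. The alternatives for FaTA, AT2G22230, AT5G10160 and AT3G56130 were added after their values were seen.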
